A study of Mus musculus with 6 samples.

Results

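The custom mouse probes described here are the 35803 array oligonucleotides whose names start with mmu_, among 91188 distinct probes that are not controls. They were chosen by name alone from the scanner files of 6 arrays, and the spots of one name were averaged. They were set against 39194 probes of the manufacturer's catalogue, those with names starting A_51_P, A_52_P, A_55_P or A_66_P, which are called catalogue probes below. The arrays read RNA of transplanted liver tumors grown from Hepa1-6, a mouse hepatoma cell line injected under the skin of the right flank of C57 BL/6 mice. The GLE group (3 mice) received Ganoderma lucidum extract, an extract of a medicinal fungus, at 0.023 g per day, the dose that the study called medium. The model group (3 mice) bore the same tumors and received 0.9% NaCl without the extract. Both groups were dosed once a day with 0.2 ml, and the extract was diluted in 0.9% NaCl. Treatment lasted 28 days, and the labels give the age as 28 d in both groups. Total RNA of 1 tumor per mouse was labelled with Cy3 and put on 1 array. All 6 tumors came from the same cell line, which limits the groups to 1 tumor model, and a tumor sample also holds the host's own cells. In such bulk RNA, fewer cells of a type and less RNA per cell cannot be told apart.

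An expression array reads RNA through short DNA strands fixed to a slide. RNA is copied into dye-labelled cRNA, the cRNA binds the strand whose letters are complementary to it, and the brightness of the spot is scanned. A strand and its reverse complement therefore read opposite strands of the genome. Manufacturers place catalogue probes mostly toward the end of known mRNAs, where the AATAAA signal for adding the poly(A) tail lies, while custom probes carry sequences that a designer supplied. In the files of these arrays every mmu probe had only its own name in the gene column and was marked as unmapped, and the catalogue probes too had only their own names there. No gene is thus paired with a probe, the tissue could not be checked against cell type markers, and the probes are described by name, sequence and signal.

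Each mmu probe was a single strand of 60 bases, all 35803 sequences were distinct, and 0 were identical to a probe of another class. The sequences behind the results are shown first, written 5′ to 3′ as deposited. The first 4 are the probes with the widest log2 differences between the GLE and model groups under the rule for naming, the first pair higher and the second pair lower in the GLE group.
mmu_17863_PI428960544: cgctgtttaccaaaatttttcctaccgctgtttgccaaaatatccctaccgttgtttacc
mmu_33298_PI428960544: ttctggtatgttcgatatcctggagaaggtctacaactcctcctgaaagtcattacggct
mmu_455_PI428960544: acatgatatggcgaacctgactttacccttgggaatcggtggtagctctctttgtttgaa
mmu_2185_PI428960544: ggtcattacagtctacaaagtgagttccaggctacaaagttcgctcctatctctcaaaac

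The next 5 carried the brightest signal of the mmu probes (the first pair, both of the suffix PI428960544) and of each of the other 3 name suffixes.
mmu_28767_PI428960544: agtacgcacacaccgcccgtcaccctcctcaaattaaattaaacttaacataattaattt
mmu_7788_PI428960544: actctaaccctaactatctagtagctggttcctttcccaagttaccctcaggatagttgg
mmu_3217_PI428980890: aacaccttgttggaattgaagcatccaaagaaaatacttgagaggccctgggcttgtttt
mmu_7343_PI428990136: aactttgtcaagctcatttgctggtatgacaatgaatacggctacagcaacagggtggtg
mmu_2331_PI428994341: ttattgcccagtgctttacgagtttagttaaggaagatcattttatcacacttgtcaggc

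The following 3 are the brightest of the 22 mmu probes that hold one and the same run of 20 bases, which is in capitals. They are shown because bright mmu probes often held such shared runs.
mmu_854_PI428960544: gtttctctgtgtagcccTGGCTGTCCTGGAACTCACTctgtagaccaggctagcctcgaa
mmu_124_PI428960544: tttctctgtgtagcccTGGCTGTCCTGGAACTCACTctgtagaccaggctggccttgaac
mmu_586_PI428960544: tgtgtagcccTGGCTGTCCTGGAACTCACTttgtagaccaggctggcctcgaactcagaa

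Both probes of the next pair are exact reverse complements of each other, the single such pair within the mmu probes, and capitals mark AATAAA, present on 1 strand.
mmu_60_PI428960544: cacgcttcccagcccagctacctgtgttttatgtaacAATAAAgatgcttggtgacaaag
mmu_32336_PI428960544: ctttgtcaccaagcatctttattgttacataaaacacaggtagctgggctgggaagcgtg

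The last pair of pairs shows an mmu probe with the catalogue probe that overlaps it on the same strand, with the shared run in capitals. They were chosen after their values were seen, as examples of overlapping probes that both passed the threshold, 1 pair lower and 1 pair higher in the GLE group.
mmu_29966_PI428960544: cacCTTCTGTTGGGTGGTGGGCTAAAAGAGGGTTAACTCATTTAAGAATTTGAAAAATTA
A_55_P2320283: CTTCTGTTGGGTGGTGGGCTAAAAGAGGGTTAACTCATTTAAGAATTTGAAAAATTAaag
mmu_31526_PI428960544: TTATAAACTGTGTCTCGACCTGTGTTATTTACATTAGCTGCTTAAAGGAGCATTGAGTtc
A_66_P139785: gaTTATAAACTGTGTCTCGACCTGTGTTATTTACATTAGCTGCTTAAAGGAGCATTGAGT

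The mmu probes filled 71766 spots on each array. No mmu spot was saturated, and 10 to 34 mmu spots per array were marked as outliers and left out. The array's 75th percentile of intensity over all probes, to which every log2 signal below is relative, lay between 117 and 161. It was 132 to 161 on the GLE and 117 to 134 on the model arrays, so the groups overlapped. On GLE replicate 3, 15495 mmu spots held the same lowest intensity of 2.87, so dim values of that array carry no order. On each of the other arrays a single mmu spot held the lowest value. Those arrays nevertheless had more mmu spots marked as surrogate values, which stand in for a measured signal. Their number was 17820 to 20656 per array, against 15495 on GLE replicate 3. Dim values were thus in part surrogates on every array, and whether surrogates that differ carry an order was not tested. The arrays lay on 2 slides, the first with all 3 GLE arrays and model replicate 1. Over the tested mmu probes the arrays of the model group correlated at 0.978 to 0.986 and those of the GLE group at 0.968 to 0.982. Between the groups the correlation was 0.964 to 0.980, so it was not lower throughout than within the GLE group. These are correlations across 18054 probes, which share the array and are not independent.

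The mmu names ended in 4 suffixes. Of the probes, 33763 (94.3%) ended in PI428960544, with numbers from 1 to 35866, and this suffix sets most values given for the mmu probes as a whole. A further 1224 probes ended in PI428990136, 456 in PI428994341 and 360 in PI428980890. In the suffix PI428994341, 453 of the 456 numbers ended in the digit 1, against 9.97% of the numbers in the suffix PI428960544. The suffixes also differed in readout. Detection on an array required 50% or more of a probe's spots to exceed background clearly by the scanner software's own call, and probes detected on 3 or more arrays were tested. The tested share was 60.0% for PI428980890, 54.6% for PI428990136, 50.4% for PI428960544 and 37.5% for PI428994341. The median log2 signal over all probes of a suffix followed the same order, from -2.60 through -3.22 and -3.58 to -4.51.

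Within the suffix PI428960544 the number in the name went with the signal. The 26936 probes numbered up to 28000 were detected on at least 3 arrays in 48.3% of cases, and in each of 14 blocks of 2000 numbers the share stayed between 45.8% and 49.5%. The 6827 probes with higher numbers were detected in 58.3% of cases, and their 4 blocks ranged from 54.1% to 62.7%. On the arrays one by one, the lower numbers were detected in 43.8% (model replicate 2) to 54.6% (GLE replicate 3) of cases and the higher numbers in 54.0% to 63.4% on the same 2 arrays. The higher numbers were detected more often on each of the 6 arrays. The median log2 signal was -3.74 for the lower and -2.88 for the higher numbers. AATAAA on the printed strand stood in 10.8% of the lower and 19.7% of the higher numbers. A run of at least 30 bases shared with a catalogue probe on the same strand stood in 3.16% of the lower and 11.0% of the higher numbers. The limit of 28000 was chosen after these values were seen, and no test was made of it.

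The mmu probes were detected less often than the catalogue probes on every array. The share of mmu probes detected was 51.8%, 48.5% and 56.4% in GLE replicates 1 to 3 and 51.1%, 46.0% and 47.4% in model replicates 1 to 3. The catalogue probes were detected in 67.4%, 66.0% and 70.7% and in 66.8%, 63.96% and 64.9% of cases on the same arrays. The mmu share was lower by 14.2 to 17.97 percentage points, with a mean difference of -16.4 ± 1.46 points (SD, n = 6 arrays, exact two-sided sign-flip permutation test over arrays, P = 0.031, the smallest this design allows). The size of the gap depended on how detection was called. With positive and significant signal in place of well above background it was -2.62 points. With all spots of a probe required it was -24.0 points, and mmu probes had at least 2 spots where most catalogue probes had 1.

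Of the 35803 mmu probes, 14635 (40.9%) were detected on all 6 arrays and 13035 (36.4%) on 0 arrays. Among the catalogue probes these shares were 59.8% and 25.1%. A further 4712 mmu probes were detected on 1 or 2 arrays and 3421 on 3 to 5 arrays. The 18056 mmu probes (50.4%) detected on at least 3 arrays were tested between the groups, along with 26321 catalogue probes and 9554 others.

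The signal of the mmu probes was also lower as a class. The median log2 signal over all mmu probes was -3.42, -3.50 and -3.37 in GLE replicates 1 to 3 and -3.45, -3.61 and -3.63 in model replicates 1 to 3. Before scaling this was an intensity of 9.40 to 15.5, against 41.9 to 63.4 for the catalogue probes. The class median was lower than that of the catalogue probes by 2.01 to 2.16 log2 units on each array, with a mean difference of -2.07 ± 0.06 (SD, n = 6 arrays, exact two-sided sign-flip permutation test, P = 0.031). Over the tested probes alone the difference was -1.51, and after normexp background correction, which adds an offset to every spot, it was -0.59. Signal also depends on how well a given sequence binds, so these are differences in brightness and not in amounts of RNA. A small number of mmu probes carried much of the brightness. The 100 brightest held 38.9% to 41.2% of the summed intensity of all mmu probes on an array.

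The mmu sequences were drawn from a narrow range of base composition. Their mean GC content was 39.8 ± 4.37% (SD over probes), and 98.5% of them had a GC content above 30% and up to 45%, compared with 79.0% of the catalogue probes, whose mean was 42.2%. Detection rose with GC content in both classes. Of the mmu probes above 30% and up to 35% GC, 36.2% were detected on at least 3 arrays, against 53.1% of the catalogue probes in the same range. Above 35% and up to 40% the shares were 47.6% and 60.4%. Above 40% and up to 45% they were 61.3% and 71.6%. The mmu probes were thus detected less often in each of these 3 ranges. Above 45% and up to 50% the order did not hold: the 112 mmu probes in this range were detected in 86.6% and the catalogue probes in 81.4% of cases. Above 50% the shares were 86.2% and 88.5%. No test was made of these shares.

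AATAAA stood in 4384 mmu probes (12.2%) and in 12.6% of the catalogue probes of the same length, whereas the remaining probes on the array held it in 3.78%. Its reverse complement TTTATT stood in 4.36% of the mmu and 4.04% of the catalogue probes. Of the mmu probes with AATAAA, 53.9% were detected on at least 3 arrays, and of those without it 49.9%. In the catalogue probes the direction was opposite, with 64.2% and 67.6%. Such a match is a match of letters only. Runs of at least 6 equal bases were about as frequent in the mmu probes (7.35%) as in the catalogue probes (6.89%).

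The spread between tumors fell with signal. The tested probes of all classes were split into 5 equal signal levels by mean log2 signal, from the dimmest (level 1) to the brightest (level 5). Of the tested mmu probes 29.3% were in level 1 and 13.2% in level 5, and of the catalogue probes 12.4% and 26.2%. The median standard deviation within groups of the mmu probes was 0.38, 0.26, 0.22, 0.20 and 0.21 log2 units from level 1 to level 5. For the catalogue probes it was 0.44, 0.30, 0.23, 0.19 and 0.20. The mmu probes were thus less spread in the lower 3 levels and about equally spread in the upper ones. The mmu probes were spotted at least 2 times and averaged, and most catalogue probes were spotted 1 time. When the first spot of each probe alone was used, the mmu values became 0.47, 0.31, 0.25, 0.22 and 0.22, above the catalogue values of 0.44, 0.31, 0.23, 0.19 and 0.20 in each level. Over all tested probes the median was 0.26 for the mmu and 0.24 for the catalogue probes with averaged spots, and 0.30 and 0.24 with the first spot.

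Repeat spots gave the error of the array itself. Among the 18023 tested mmu probes with exactly 2 spots left on every array, the median standard deviation between spots was 0.35 log2 units in level 1, 0.19 in level 2, 0.13 in level 3, 0.10 in level 4 and 0.07 in level 5. The spread between mice of the same probes was 0.38 in level 1 and 0.21 in level 5. The spread between spots is that of single spots and the spread between mice that of averages of 2 spots, so their sizes are not directly comparable. The spread between spots fell more from level 1 to level 5 than that between mice. A set of 20 mmu probes had 10 spots each, from mmu_9982_PI428960544 to mmu_9999_PI428960544 with mmu_999_PI428960544 and mmu_9990_PI428990136. Of these, 6 were detected on all 6 arrays. The standard deviation of these 6 between spots was 0.09 to 0.32 and between mice 0.04 to 0.36.

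The groups were compared with limma on all 53931 tested probes. The study's methods called a probe at 2-fold or more with an unadjusted P below 0.05, and by this threshold 251 of the 18056 tested mmu probes passed (1.39%), against 1.74% of all tested probes. Of these, 108 were higher in the GLE group (over all tested probes, 1.04% passed as higher) and 143 were lower (over all tested probes, 0.703%). Among the catalogue probes 558 passed, 393 higher and 165 lower. An adjusted P (limma, Benjamini-Hochberg over all tested probes) under 0.05 was reached by 0 mmu probes, and by 0.00% of all tested probes, with the lowest adjusted P at 0.46. An unadjusted P under 0.05 was reached by 1845 mmu probes (10.2%), against 10.8% of all. The values of the groups did not overlap in 2918 mmu probes (16.2%), against 17.4% of all tested probes. Counted over both directions together, these shares of mmu probes were thus below those over all probes. By direction, 0.598% of the tested mmu probes passed as higher, below the share over all probes, and 0.792% as lower, above it.

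Of the 251 mmu probes past the threshold, 206 had groups that did not overlap, 83 higher and 123 lower, against 1.23% of all tested probes that met both conditions. By direction these were 0.460% of the tested mmu probes as higher, against 0.653% over all, and 0.681% as lower, against 0.575%. A total of 156 of the 251 were detected on all 6 arrays, and 24, all in the dimmest of 5 signal levels, were detected on 0 arrays of one group, so their fold is not a measured one. The changes of the 251 were small, with a median absolute log2 difference of 1.15, and 1 reached 4-fold higher and 4 reached 4-fold lower. Of the 26321 tested catalogue probes, 98 passed as 4-fold higher and 10 as 4-fold lower. Over all 53931 tested probes these counts were 100 and 14. The calls depended on the slide, the background step and single arrays. With the slide as a block 202 probes passed, of which 54 were among the 251, and after normexp 43 passed. Slide 1 holds all GLE arrays and 1 model array, so slide and group are largely confounded. Without GLE replicate 2 the count was 522, without model replicate 1 it was 600 and without model replicate 2 it was 150. Without GLE replicate 2, 8 mmu probes had an adjusted P under 0.05 (limma), 7 of them higher in the GLE group. The share over all tested probes was not counted for that run, so the 8 are no result particular to mmu probes. The catalogue probes past the threshold also rose in that run, from 558 to 1451.

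More of the passing mmu probes were lower than higher and more of the passing catalogue probes higher than lower, in each of the scalings given next. The share of the passing probes that was higher was 43.0% for mmu and 70.4% for catalogue probes. It was 28.6% and 63.5% after quantile normalization, 21.8% and 53.2% after scaling to the median, and 20.9% and 75.5% after normexp. The majority turned with the choice of probes or arrays. Without GLE replicate 3 the catalogue share was 41.3%. For the mmu probes it was 58.6% without a detection filter, 55.0% with the slide as a block, 54.8% without GLE replicate 1, 52.7% without GLE replicate 2 and 54.7% without model replicate 2. By name number, 64 of the 177 passing probes of the suffix PI428960544 up to 28000 were higher and 35 of the 54 above it, but after quantile normalization the latter were 21 of 47, after scaling to the median 18 of 54 and after normexp 2 of 6.

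The probe mmu_17863_PI428960544, with log2 signals of 2.45, 2.34 and 3.75 in GLE replicates 1 to 3 and 2.04, 0.59 and 1.12 in model replicates 1 to 3, was the highest in the GLE group under the rule for naming. The groups did not overlap, and GLE replicate 3 was well above the other GLE arrays. The log2 difference was 1.60 ± 0.48 (SE, limma, adjusted P = 0.46). With the slide as a block it was 0.81 and the call was lost, as it was with the methods' t-test, which leaves the difference as it is. Its sequence holds a run of 8 bases that occurs again without overlap.

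The probe mmu_33298_PI428960544 had log2 signals of -0.92, -1.09 and -1.04 in the GLE and -2.31, -2.997 and -2.41 in the model replicates. The GLE arrays lay close together and above all model arrays. The log2 difference was 1.56 ± 0.21 (SE, limma, adjusted P = 0.46). After normexp correction it was 0.47, below the 2-fold limit.

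The probe mmu_455_PI428960544 had log2 signals of -2.90, -1.15 and -1.79 in the GLE and 1.36, -0.30 and -0.52 in the model replicates. All GLE values were below all model values, and model replicate 1 stood far above the other model arrays. The log2 difference was -2.13 ± 0.60 (SE, limma, adjusted P = 0.46). Without model replicate 1 it was -1.54, and from the first spot of the probe alone it was -3.59. The methods' t-test did not call it.

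The probe mmu_2185_PI428960544 had log2 signals of -0.82, -0.07 and -1.31 in the GLE and 0.90, 1.48 and 1.73 in the model replicates. The groups were separated by almost 1 log2 unit. The log2 difference was -2.11 ± 0.35 (SE, limma, adjusted P = 0.46). Its call held under each alternative run and without each array, with log2 differences from -2.44 to -1.48. It shares a run of 20 bases with other mmu probes, 3 probes in all holding the same run. Of the 205 tested mmu probes with a run found in 3 to 5 probes, 1 passed the threshold, which was this probe. Over all tested probes 1.74% passed.

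Near the limit of 2-fold, among probes with an unadjusted P under 0.05, mmu_17355_PI428960544 (2.0003-fold lower in the GLE group) and mmu_10177_PI428960544 (2.003-fold lower) lay just inside. Both were detected on all 6 arrays. The probes mmu_3221_PI428960544 and mmu_17511_PI428960544 lay just outside by their fitted difference, but the first was detected on 0 GLE and 3 model arrays and the second on 3 GLE and 0 model arrays, so no fold is given for them.

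No difference beyond the spread was seen for the brightest mmu probes. The probe mmu_28767_PI428960544 had log2 signals of 10.84, 11.07 and 10.61 in the GLE and 10.82, 11.05 and 11.19 in the model replicates, with a log2 difference of -0.18 ± 0.18 (SE, limma, adjusted P = 0.68). For mmu_7788_PI428960544 the signals were 10.80, 11.03 and 10.64 in the GLE and 10.95, 11.05 and 11.11 in the model replicates, with a log2 difference of -0.21 ± 0.16 (SE, limma, adjusted P = 0.59). The brightest probes of the other suffixes had log2 differences of 0.26 ± 0.27 (mmu_3217_PI428980890), -0.14 ± 0.19 (mmu_7343_PI428990136) and -0.04 ± 0.25 (mmu_2331_PI428994341), and their adjusted P in limma were 0.69, 0.76 and 0.96. In all 5 of these probes the groups overlapped.

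As a class, the tested mmu probes shifted little. The share of all mmu probes detected averaged 52.3 ± 3.97% in the GLE and 48.2 ± 2.64% in the model group (SD, n = 3), a difference of 4.10 points, and the groups overlapped. Without GLE replicate 3 the difference was 2.01 points. The median log2 signal over tested mmu probes averaged -1.31 ± 0.03 in the GLE and -1.32 ± 0.04 in the model group. Its difference was 0.01, and it was -0.02 after quantile normalization, so the direction was not settled. A total of 120 mmu probes were detected on all 3 GLE and 0 model arrays, and 11 on all 3 model and 0 GLE arrays. Over all 91188 probes these counts were 294 and 31, or 0.322% and 0.0340%, and the mmu shares of 0.335% and 0.0307% were close to these. The share of probes detected was highest on GLE replicate 3 in the mmu and the catalogue probes, and its part in these counts was not tested.

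By signal level, the median log2 difference of the tested mmu probes was 0.10 in level 1, 0.03 in level 2, 0.01 in level 3, -0.04 in level 4 and 0.02 in level 5. For the catalogue probes it was 0.13, 0.07, 0.02, -0.02 and -0.06. In each level the ranges of the 3 GLE and 3 model medians of the mmu probes overlapped. In level 1 the array medians deviated from their mean by 0.05, 0.00 and 0.09 in the GLE replicates and by 0.07, -0.10 and -0.10 in the model replicates, so model replicate 1 lay with the GLE arrays, which share its slide. Among the arrays of that slide alone, the difference of medians in level 1 was -0.02, against 0.09 over all 6 arrays. In level 5 the difference of medians over all 6 arrays was -0.03, opposite in sign to the median difference of 0.02. In level 1 the difference of medians was -0.03 after quantile normalization and -0.08 after normexp. In level 5 the same 2 settings gave -0.02 and 0.03.

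The share of mmu probes past the threshold was 1.84% in level 1, 1.03% in level 2, 1.23% in level 3, 1.04% in level 4 and 1.67% in level 5. The catalogue probes passed in 4.76%, 2.53%, 1.94%, 1.68% and 1.14%. The direction of the passing mmu probes differed between levels. In level 1, 65 were higher and 32 lower in the GLE group, but after quantile normalization 39 were higher and 58 lower, after scaling to the median 42 and 54, and after normexp 0 passed there. Among probes detected on all 6 arrays, 3 were higher and 5 lower in level 1. Of the 97 passing probes of this level, 20 were detected on 0 model arrays and 4 on 0 GLE arrays, and such probes entered the test through the group in which they were brighter. The direction in level 1 is thus not settled. In level 4, 1 was higher and 27 lower, and in level 5, 8 were higher and 32 lower. Lower probes were the majority in levels 4 and 5 under each of these scalings and without each single array. With the slide as a block, 7 probes passed in level 4 (3 higher, 4 lower) and 1 in level 5 (higher). Model replicates 2 and 3 are the only arrays of the other slide. No test was made of the difference between levels.

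Overlapping probes allowed measured differences to be set against each other. A run of at least 30 bases on the same strand was shared with a catalogue probe by 1877 mmu probes (5.24%), by 20.6% of the suffix PI428990136 and by 4.75% of the suffix PI428960544. Of the 2014 overlapping pairs, both probes were tested in 1028. Across these pairs the log2 differences correlated at r = 0.69 (Spearman's rho 0.68), and the median absolute gap between the differences of a pair was 0.14. The points share the 6 arrays, and some share a probe. Either probe passed the threshold in 31 pairs, both had the same sign in 29 of these, and both passed in 4.

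In the first pair shown above, the mmu probe mmu_29966_PI428960544 and the catalogue probe A_55_P2320283 share 57 bases. The log2 signals of the mmu probe were 2.01, 2.29 and 1.81 in the GLE and 2.67, 3.45 and 3.35 in the model replicates. Those of the catalogue probe were 1.86, 2.31 and 3.01 in the GLE and 3.44, 4.46 and 4.18 in the model replicates. Both were lower in all 3 GLE arrays than in any model array, with log2 differences of -1.12 ± 0.25 and -1.63 ± 0.36 (SE, limma, adjusted P = 0.46 for both).

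In the second pair, mmu_31526_PI428960544 and A_66_P139785 share 58 bases. The mmu probe read -0.82, -1.68 and -0.0043 in the GLE and -1.78, -2.35 and -2.10 in the model replicates on the log2 scale. The catalogue probe read -0.70, -1.58 and -0.07 in the GLE and -1.91, -2.42 and -1.94 in the model replicates. The values of the pair followed each other array by array, GLE replicate 2 lowest of the GLE group for both. The log2 differences were 1.24 ± 0.40 and 1.30 ± 0.37 (SE, limma, adjusted P = 0.46 for both).

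With the strand turned, the correlations over all runs of at least 30 bases were lower and varied with the class of the partner. Runs of at least 30 bases shared with a catalogue probe on the opposite strand were found in 86 mmu probes, and across 99 tested pairs the log2 differences correlated at r = 0.15 (rho 0.05). Among the mmu probes themselves, 733 shared such a run on the same strand with another mmu probe, with r = 0.65 (rho 0.58) across 374 tested pairs. On opposite strands it was r = -0.59 (rho -0.26) across 38 pairs. With the remaining probes it was r = 0.65 (rho 0.66) across 110 pairs on the same strand. On opposite strands it was r = 0.28 (rho 0.42) across 44 pairs, and r = 0.60 (rho 0.70) across the 16 of these that share 45 to 59 bases. For runs of that length on the same strand it was r = 0.63 (rho 0.66) across 71 pairs, so there the correlation was not clearly lower with the strand turned. Without the 2727 mmu probes that shared a run with any other probe on the same strand, 231 of 16469 tested mmu probes passed the threshold (1.40%). With them 251 of 18056 passed (1.39%), so the share was nearly the same.

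A total of 11 pairs were reverse complements over all 60 bases, 6 with a catalogue probe, 4 with an A_30_P catalogue probe and 1 within the mmu probes. In 6 pairs both strands were detected on at least 3 arrays, in 4 pairs 1 strand was, and in 1 pair neither was. In the mmu pair printed above, mmu_60_PI428960544 was detected on 6 arrays, with log2 signals of 1.05, 1.14 and 1.23 in the GLE and 0.99, 1.61 and 1.47 in the model replicates, and mmu_32336_PI428960544 was detected on 0 arrays. The groups of mmu_60_PI428960544 overlapped, with a log2 difference of -0.21 ± 0.20 (SE, limma, adjusted P = 0.66). The strand that was read is the one that holds AATAAA. Of the 6 pairs in which both strands were tested, the log2 difference had the same sign in 3 and the opposite sign in 3. An unadjusted P under 0.05 in limma was reached by 0 of the mmu probes and 2 of the partners. Over all tested probes the share was 10.8%, and counts among so few are no result about the strands. The 2 partners, A_52_P238846 and A_55_P2092909, had log2 differences of -0.42 and 0.47, opposite in sign to those of their mmu probes (0.20 and -0.27).

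Runs of bases repeated among mmu probes went with bright and even signal. A total of 1493 mmu probes (4.17%) shared a run of at least 20 bases with another mmu probe on the same strand. Of the 100 brightest mmu probes, 49 did so, and 31 held a run found in more than 5 mmu probes. The median log2 signal was -3.65 for probes that shared no such run, -2.34 where 2 probes shared it, -0.16 for 3 to 5 probes, 4.66 for 6 to 20 probes and 8.67 for the 22 probes of the largest set. The median standard deviation within groups fell along this order, from 0.26 to 0.24, 0.18, 0.11 and 0.08. Within level 5 alone it was 0.22, 0.20, 0.15, 0.10 and 0.08, in the same order. No test was made, and the probes of a set share their letters and are not independent.

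The run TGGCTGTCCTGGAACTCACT stood in 22 mmu probes and in 1 catalogue probe. All 22 were detected on all 6 arrays, with mean log2 signals from 6.52 to 9.36. Their median log2 signal was 8.83, 8.73 and 8.71 in GLE replicates 1 to 3 and 8.69, 8.52 and 8.62 in model replicates 1 to 3. Every log2 difference lay between -0.02 and 0.20. Of the 22, 0 had an unadjusted P under 0.05 in limma, against 10.8% of all tested probes. The second set, the run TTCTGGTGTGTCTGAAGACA, stood in 16 mmu and 7 catalogue probes. Its mmu members were likewise all detected on 6 arrays, with log2 differences from -0.05 to 0.15 and 0 of them under a P of 0.05. Of the 108 tested mmu probes with a run found in 6 to 20 probes 0 passed the threshold, and of the 16986 tested probes without a shared run 246 passed, where 1.74% of all tested probes passed. The members of a set share their letters, so these counts of 0 among few probes are no result about them.

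Some mmu probes could be placed in the genome without a gene name, by exact match to sequences from RefSeq on the build GRCm38.p6, which is not the build mm9 that the array's header names. In the windows from 250 bases before to 50 bases after the starts of 32851 listed genes, 123 mmu probes matched with all 60 bases, 52 on the strand of the gene and 75 on the opposite strand, some on both. Of the catalogue probes 242 did so. The whole genome was not searched, so further places of these probes are not known. Of the mmu probes on the opposite strand, 48.0% were detected on at least 3 arrays, and of those on the gene's strand 53.8%. For the catalogue probes the shares were 64.2% and 66.9%. The following stretches hold the brightest such probe on each strand that lay wholly before the gene start and was detected on all 6 arrays, chosen after the values were seen. They give the 250 bases before the start on the strand of the gene, with the matched 60 bases in capitals.
Baz2b (chr2:60125741-60125990, minus strand): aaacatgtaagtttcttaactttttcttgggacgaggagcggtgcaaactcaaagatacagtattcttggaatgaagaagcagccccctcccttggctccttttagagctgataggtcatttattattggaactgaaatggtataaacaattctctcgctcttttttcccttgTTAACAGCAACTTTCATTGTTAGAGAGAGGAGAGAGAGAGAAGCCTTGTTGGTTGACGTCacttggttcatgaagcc
Gm43305 (chr14:54297489-54297738, minus strand): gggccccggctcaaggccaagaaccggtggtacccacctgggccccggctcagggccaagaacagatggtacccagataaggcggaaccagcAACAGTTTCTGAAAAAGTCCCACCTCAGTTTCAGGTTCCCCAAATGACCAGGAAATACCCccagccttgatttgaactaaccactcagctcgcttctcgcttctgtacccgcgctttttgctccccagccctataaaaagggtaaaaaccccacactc

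The probe mmu_1672_PI428960544 reads the strand opposite to Baz2b, a gene of the bromodomain family, at chr2:60125758-60125817, which is 77 to 18 bases before the listed start. Its log2 signals were 8.20, 8.59 and 8.20 in the GLE and 8.20, 7.65 and 8.24 in the model replicates. The groups overlapped, with a log2 difference of 0.30 ± 0.22 (SE, limma, adjusted P = 0.58). The probe mmu_22214_PI428960544 matches the strand of Gm43305, a predicted gene, at chr14:54297587-54297646, 158 to 99 bases before its start. This probe shares a run of 20 bases with other mmu probes, 3 probes in all holding the same run, so its signal may not come from this place alone. Its log2 signals were 7.58, 7.57 and 7.09 in the GLE and 7.28, 7.52 and 7.50 in the model replicates, again with overlap and a log2 difference of -0.02 ± 0.19 (SE, limma, adjusted P = 0.97).

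Other placed probes that were detected on all 6 arrays read the strand opposite to Pou5f1, a transcription factor of pluripotent cells (mmu_1507_PI428960544, chr17:35508599-35508658, log2 difference 0.05 ± 0.21), and to Pfn1, which encodes the actin-binding protein profilin (mmu_19498_PI428960544, chr11:70654760-70654819, log2 difference 0.05 ± 0.18). Neither had an unadjusted P under 0.05 in limma. They lay before the listed starts, so they do not measure the mRNA of those genes as listed. Of the 64 placed mmu probes that were tested, 1 passed the threshold, which is near the 1.74% of all tested probes. This was mmu_31342_PI428960544 at chr9:119984459-119984518, opposite to Csrnp1. Its log2 difference of 1.01 ± 0.24 (SE, limma) was just past the limit of 2-fold, and it was detected on 4 of the 6 arrays.

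In the 1005 listed microRNA hairpins, the folded precursors from which microRNAs are cut, 71 mmu probes matched with at least 20 bases on either strand, 64 of them tested and 0 past the threshold. With 1.74% of all tested probes past it, a count of 0 among so few is no result about them. Of these, 14 matched part of Mir1954 on its strand, and others matched part of it on the opposite strand. The 14 include mmu_854_PI428960544 and mmu_124_PI428960544, printed above for a run shared among many mmu probes. Such a partial match does not show that a probe reads this precursor. A total of 6 mmu probes lay whole inside a hairpin, all on its strand, and 4 of them were tested. They were in Mir6516, Mir219a-1, Mir92-1, Mir196a-1, Mir10a and Mir181b-1. The last 2 of these were detected on 0 arrays. A probe of this length binds the precursor or a longer transcript through that place, and the arrays do not read the mature microRNA apart from it. The pair detected on all 6 arrays is shown, with the mature sequence mmu-miR-219a-1-3p in capitals where the table gives one inside the probe.
mmu_905_PI428960544: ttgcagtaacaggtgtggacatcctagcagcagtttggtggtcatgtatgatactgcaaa
mmu_1748_PI428960544: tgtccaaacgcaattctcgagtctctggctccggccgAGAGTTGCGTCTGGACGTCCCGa

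The probe mmu_905_PI428960544, inside Mir6516 at chr11:117077371-117077430 on the plus strand, had log2 signals of 3.09, 4.45 and 3.13 in the GLE and 4.38, 4.36 and 4.49 in the model replicates. The model arrays lay close together, and GLE replicate 2 lay among them while both other GLE arrays were lower, so the groups overlapped. The log2 difference was -0.86 ± 0.36 (SE, limma, adjusted P = 0.46), less than 2-fold. The probe mmu_1748_PI428960544, inside Mir219a-1 at chr17:34025009-34025068 on the minus strand, had log2 signals of 1.31, 1.08 and 1.68 in the GLE and 1.19, 1.68 and 1.58 in the model replicates. Its groups overlapped, and the log2 difference was -0.13 ± 0.22 (SE, limma, adjusted P = 0.82).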

How the data were processed

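Tumor RNA of each of 6 mice was read with a single dye on its own array. What the authors deposited for each array is the output of Agilent Feature Extraction 10.7.1.1, whose spot intensity had its background subtracted but was not scaled across arrays. A further table from the authors gives log2 values for these arrays. All its columns have a median of 4.48, and it served as an alternative. The number of arrays limits the precision.

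Control spots and outlier spots were left out, log2 was taken of the processed signal, spots of a probe were averaged, and each array's 75th percentile over probes was subtracted. Probes detected on at least 3 of 6 arrays were tested in limma 3.58.1 (R 4.3.3), and P was adjusted over all of them by Benjamini-Hochberg. The P-values of limma set the difference between the groups against the spread between arrays within the groups. Classes of probes were compared over arrays with an exact two-sided sign-flip permutation test, since probes are not replicates. Comparisons of 3 against 3 arrays by permutation cannot give a P below 0.10, and none is printed. Sequence relations were exact matches, counted in Python 3.11.15, and RefSeq windows, hairpins and mature microRNAs of build GRCm38.p6 were matched by letters.

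Probes were named as the pair with the largest log2 difference in each direction among those past the threshold, with groups that do not overlap and detection on all 6 arrays, as the brightest of all and of each suffix, as reverse complements, and as the pairs just inside and outside the 2-fold limit. A bright pair of an mmu and a catalogue probe of identical sequence was to be named, and 0 such pairs exist. Other probes were chosen after their values were seen, as stated beside them or because they are placed by a reference sequence. The members, lists and tests were chosen with earlier results of these data known. The limma step was tested on simulated data. Replicate numbers did not pair the mice: deviations of same-numbered arrays correlated at -0.10, 0.03 and -0.12.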

Additional observations from a re-analysis of the deposited data

How the results depend on the processing

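The 251 mmu probes past the threshold became 43 after normexp correction, 461 without a detection filter, 165 with detection on all 6 arrays, 108 with the methods' t-test, and 419 from the first spot of each probe, an alternative chosen after seeing the data. They ranged from 150 to 600 when single arrays were left out, and lay between 202 and 308 in the other 7 alternatives. With the replicate number as a block the count was 263, and with the slide as a block 202, of which 54 were among the 251. Counts with an adjusted P under 0.05 were 0 in 10 alternatives and 0 to 8 without single arrays, with 594 to 2961 mmu probes at an unadjusted P under 0.05.

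The detected share of mmu minus catalogue probes was -16.9 to -16.1 points and their median signal difference -2.08 to -2.05 without single arrays, where the smallest P of 5 arrays is 0.0625. The difference between groups of the array medians over tested mmu probes, 0.01, changed sign to -0.042 (normexp), -0.024 (quantile normalization and the deposited values), -0.084 (scaling to the median), -0.0046 (detected on all 6 arrays) and -0.035 (slide 1), and was 0.0010 to 0.04 without single arrays. The same difference in the dimmest level (0.09) minus that in the brightest (-0.03), 0.13, became -0.11 (normexp), -0.0091 (quantile normalization), -0.0084 (deposited values) and -0.063 (slide 1), and was 0.06 to 0.22 without single arrays. The median within-group SD of mmu minus catalogue probes, 0.02, became -0.029 after normexp and 0.065 from the first spot. The causes were not tested, except that the first spot lacks the averaging. The detected share, GLE minus model, kept its direction at 2.01 to 5.95 points without single arrays. Leaving out mmu probes of identical sequence was not run, since 0 exist.

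Signal over background limits the dim probes: 36.4% of mmu probes were detected on 0 arrays, and their levels have no order between the groups.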
